A study of Mus musculus with 6 samples.

Results

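Histone genes were followed in embryoid bodies (EBs) of mouse embryonic stem (ES) cells before and after the addition of retinoic acid (RA). A gene was taken as a histone gene when its symbol, or an older symbol of the same gene, began with Hist1h to Hist4h, H1f, H2afj, H2afv, H2afx, H2afy, H2afz or H3f3. The mouse RefSeq table held 87 such genes. Of these, 42 had a probe set that carried no other gene symbol, 39 were present only in probe sets shared with other genes and 6 were in no probe set. The 42 were among 19938 genes measured in this way, and where a gene had several probe sets the brightest was used. They comprised 31 replication-dependent genes of the histone clusters (5 of the H1 family, 5 of H2A, 11 of H2B, 3 of H3 and 7 of H4) and 11 replacement genes (3 of H1, 7 of H2A and 1 of H3). Current symbols are used below, with older ones in brackets.

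EBs were grown from R1 cells, an established ES cell line, in low-binding dishes without leukaemia inhibitory factor, and RA was added at 2 μM when they were 4 days old. RNA was taken before RA (day 0), 3 days later (day 3) and 4 days later (day 4), with 2 arrays per day and 1 sample per array. Affymetrix Mouse Gene 1.0 ST arrays were used, and values are log2 intensities after Robust Multichip Average (RMA) normalization. The labels do not say that the arrays of a day came from separate cultures, so each p-value rests on array-to-array spread that may be technical. EBs kept equally long without RA were not analysed here, so effects of RA and of EB age cannot be told apart. Day 3 and day 4 were each compared with the same day 0 arrays.

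Histones package DNA into nucleosomes, which hold pairs of H2A, H2B, H3 and H4, while H1 binds the linker DNA between them. The cluster genes have no introns, are transcribed mainly while DNA is replicated, and give transcripts that end in a conserved stem-loop in place of a poly(A) tail. The replacement genes lie outside the clusters, and many of them give polyadenylated transcripts and supply variants throughout the cell cycle. The class as chosen here by symbol also holds H2ax, known to give a stem-loop transcript as well, and the germ cell genes H1f7 and H1f8. In ES cells, which divide rapidly, cluster histone transcripts are abundant, and the macroH2A variants are known to be more abundant in differentiated cells than in pluripotent ones. The labelling kit named in the study primes along whole transcripts, so transcripts without a poly(A) tail are also read.

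Within each day the 2 arrays correlated at 0.999 across genes (Pearson's r, where genes are no replicates). The EBs differed in cell state between the days. All 7 ES cell markers fell by day 3 and by day 4, Pou5f1 from 10.27 and 10.20 at day 0 to 6.16 and 6.13 at day 4, and all 8 markers of differentiated EB cells rose, Meis1 from 6.44 and 6.56 to 11.60 and 11.63. The summed intensity of the ES cell markers was 6714 to 7173 at day 0, 928 to 981 at day 3 and 783 to 912 at day 4, and that of the differentiated markers was 3593 to 3692, 30550 to 31076 and 23420 to 24147. The ES cell marker Zfp42 was dim already at day 0 (5.85 and 5.87). Since the arrays read whole EBs, a change of a gene per cell and a change in the share of cells that express it cannot be told apart, and the part of the cell types in the histone changes was not tested.

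The replacement genes had larger changes than the cluster genes, and 6 of the 8 called at day 4 were upwards. The median absolute log2 change at day 4 was 0.48 in the replacement genes, 0.21 in the cluster genes and 0.21 in all genes, or 0.53, 0.23 and 0.34 once dim genes (mean below 6) were set aside. Of the 11, 6 were higher and 2 lower at day 4 than at day 0 (limma, Benjamini-Hochberg adjusted p of 0.05 or below), where 25.9% of all genes were higher and 25.6% lower. With dim genes set aside, 5 of 9 replacement genes were higher and 2 lower, against 34.5% and 33.8% of all genes. With the arrays centred on their medians, 5 of the 11 were higher and 4 lower at day 4, against 19.0% and 42.7% of all genes. At day 3 centring gave the same counts, against 19.5% and 42.6% of all genes. Without centring, the median log2 change of the 11 at day 4 was 0.27, against 0.05 in the 31 cluster genes and −0.00 in all genes. It was 0.15 in the 10 protein-coding replacement genes. At day 3, 5 were higher and 3 lower, where 23.8% of all genes were higher and 28.1% lower, with a median of 0.18 against −0.04 in the cluster genes and −0.05 in all genes. The difference between the classes is a description of counts and medians and carries no test.

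Macroh2a2 (H2afy2) had the largest rise of the replacement genes. It encodes macroH2A2, an H2A variant with a large non-histone domain that is associated with stable gene repression. Its values were 10.55 and 10.60 on the day 0 arrays, 11.97 and 11.91 at day 3 and then 12.01 and 11.94 at day 4. The log2 change was 1.37 (SE 0.06, adjusted p = 1.59e-06) by day 3 and 1.40 (SE 0.06, adjusted p = 1.26e-06) by day 4, a 2.64-fold difference in intensity. Between day 3 and day 4 it differed by 0.03 (adjusted p = 0.699), so the rise was in place at day 3. Macroh2a1 (H2afy), which encodes the related macroH2A1, went from 11.59 and 11.56 to 12.37 and 12.38 at day 3 and stood at 12.24 and 12.17 at day 4. It rose by 0.80 by day 3 (SE 0.05, adjusted p = 1.52e-05) and by 0.63 by day 4 (SE 0.05, adjusted p = 4.28e-05), and the difference of −0.16 between the later days did not pass the test (adjusted p = 0.0582). Macroh2a3 (H2afy3), which RefSeq lists as a pseudogene, read 6.47 and 6.69 on the day 0 arrays, 7.01 and 6.99 at day 3 and later 6.98 and 7.14 at day 4, and rose by 0.48 (SE 0.09, adjusted p = 0.00272) by day 4. On each macroH2A probe set, all 4 later arrays lay above both day 0 arrays. Arrays of a later day and of day 0 did not overlap, in either direction, in most of the 19938 genes (15034 for day 3, 14564 for day 4).

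The genes for H2A.Z, a variant found at promoters and enhancers, did not change alike. H2az2 (H2afv) read 11.62 on both day 0 arrays, 12.53 on both day 3 arrays, and 12.71 and 12.67 at day 4. Its rise was 0.91 (SE 0.05, adjusted p = 6.41e-06) by day 3 and 1.07 (SE 0.05, adjusted p = 2.60e-06) by day 4, a 2.10-fold difference. H2az1 (H2afz), which encodes a nearly identical protein, read 12.83 and 12.84 on the day 0 arrays, 12.77 and 12.73 at day 3 and then 12.73 and 12.75 at day 4. Its change of −0.10 by day 4 did not pass the test (adjusted p = 0.162), with a 95% interval of −0.22 to 0.02. A dimmer probe set of H2az1 gave −0.10 as well (adjusted p = 0.139). The difference between the changes of H2az1 and H2az2 was not tested.

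Between day 3 and day 4, 1 replacement gene was called higher and 0 lower by limma, where 15.8% of all genes were higher and 12.2% lower, and 2 and 1 were at an unadjusted p under 0.05. The called gene was H1f10 (H1fx), which encodes the linker variant H1X. Its values were 10.51 and 10.59 on the day 0 arrays, 10.87 and 10.89 at day 3 and then 11.13 and 11.23 at day 4. It rose by 0.32 by day 3 (SE 0.06, adjusted p = 0.00289), by 0.63 by day 4 (SE 0.06, adjusted p = 8.17e-05), and by 0.30 from day 3 to day 4 (adjusted p = 0.0104). The last call did not hold when day 3 replicate 1 (adjusted p = 0.0622) or day 4 replicate 2 (0.0626) was left out. The germ cell linker genes gave little signal change. H1f8, the oocyte linker gene, was dim (5.13 to 5.50 over the 6 arrays) and differed by 0.03 at day 4 (adjusted p = 0.868). H1f7, the spermatid linker gene, read 7.24 and 7.23 at day 0 and 7.02 and 7.08 at day 3, a fall of 0.18 (adjusted p = 0.0458) that was lost with any 1 of the day 0 or day 3 arrays left out (adjusted p = 0.0828 to 0.191), and it was at 7.21 and 7.08 at day 4.

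2 replacement genes of the H2A family were lower on both later days. H2aj (H2afj) went from 7.63 and 7.86 to 7.27 and 7.21 at day 3 and 7.15 and 7.28 at day 4, a fall of 0.53 by day 4 (SE 0.09, adjusted p = 0.00164). H2ax (H2afx), whose product is phosphorylated at DNA breaks, read 11.13 on both day 0 arrays, 10.88 and 10.78 at day 3 and then 10.93 and 10.99 at day 4. It fell by 0.30 by day 3 (SE 0.06, adjusted p = 0.00351), and its day 4 difference was −0.17 (SE 0.06, adjusted p = 0.0431). The day 4 call of H2ax was lost with any 1 of the day 0 or day 4 arrays left out (adjusted p = 0.0684 to 0.172) and under cyclic loess (adjusted p = 0.0844).

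H3.3, the H3 variant laid down outside replication, is encoded by H3f3a and H3f3b. The probe set that carried H3f3a alone was dim, at 5.25 and 5.24 on day 0, 5.37 and 5.50 on day 3 and 5.47 and 5.56 on day 4. It rose by 0.27 by day 4 (SE 0.07, adjusted p = 0.0109), a call that was lost with the arrays centred on their medians (adjusted p = 0.157) or without day 4 replicate 2 (adjusted p = 0.0675). The 4 probe sets shared by H3f3a and the predicted gene Gm12657 read 12.22 to 12.78 and differed by 0.33 to 0.39 between day 4 and day 0, and all 4 were called higher on both days. H3f3b was present only in 2 probe sets shared with the predicted gene Gm6485, which read 12.71 to 13.12 and were higher by 0.20 and 0.23 at day 4 (adjusted p = 0.0145 and 0.0084). These shared sets were not refitted with median centring, which shifted every day 4 change by −0.15. Which gene of each pair gave the signal cannot be told apart.

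**Figure D1:**
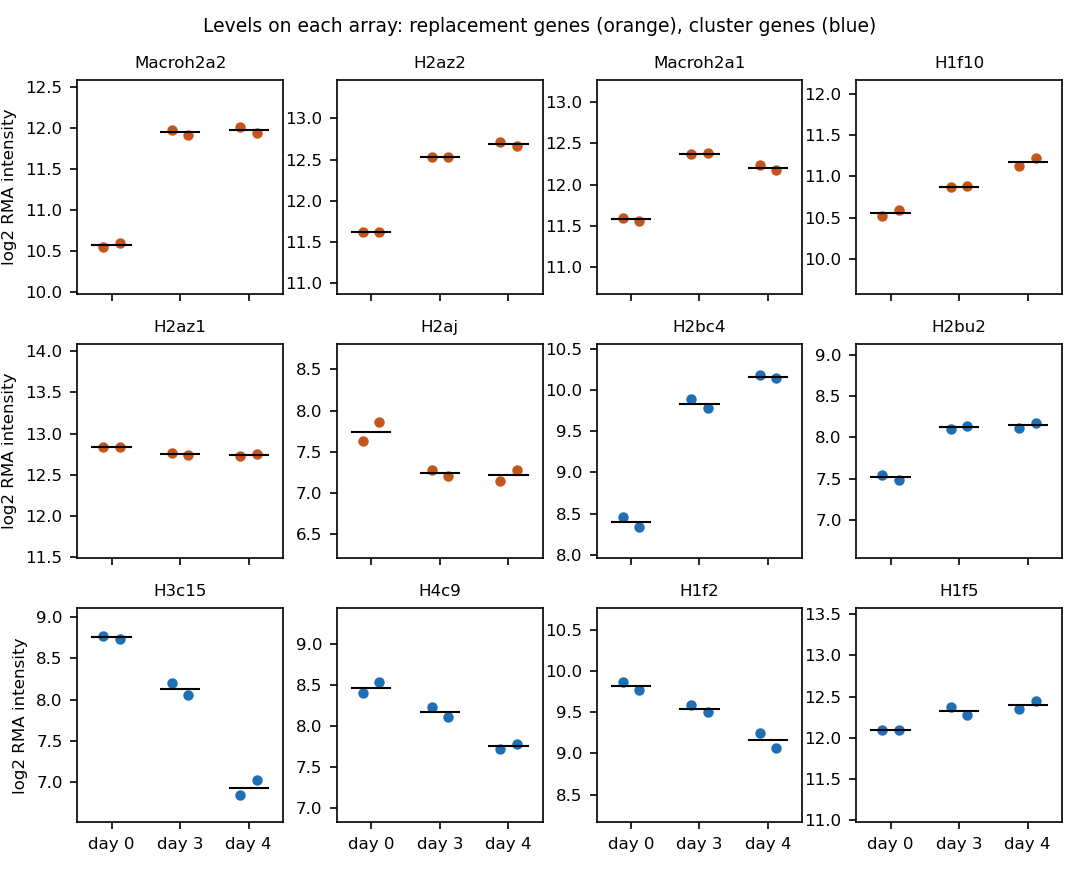
RMA log2 intensity of 12 histone genes on each of the 6 arrays, with points for arrays and a line for the mean of the day's 2 arrays. Each panel spans the same range of 2.6 log2 units, so that slopes can be compared, but its position on the scale is the gene's own. Macroh2a2, H2az2 and H2bc4 step up between day 0 and day 3, H3c15 steps down mainly between day 3 and day 4, and H2az1 stays between 12.73 and 12.84.

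The cluster genes divided evenly at day 4. Of 31, 7 were higher, 7 lower and 17 did not pass the test, which is 22.6% each way and below the shares of all genes given above. At day 3, 5 were higher and 9 lower (16.1% and 29.0%), against 23.8% and 28.1% of all genes. Between day 3 and day 4, 6 were higher and 3 lower, against the 15.8% and 12.2% of all genes given above. While 13 of the 31 were called in none of the 3 comparisons, the share of all genes called in none was not counted. The even split at day 4 rests on the scaling of the arrays. Centring each array on its median shifted every day 4 change by −0.15 and gave 2 cluster genes higher and 14 lower, as it gave 19.0% higher and 42.7% lower of all genes, while cyclic loess gave 8 higher and 7 lower. The counts also leaned on single arrays: 4 were higher at day 4 without day 0 replicate 1, 4 or 5 were lower at day 3 with any 1 of the day 0 or day 3 arrays left out, 3 were higher at day 3 without either day 0 array or day 3 replicate 1, and 2, 1 and 0 were higher between the later days without day 3 replicate 1, day 3 replicate 2 and day 4 replicate 2.

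H2bc4 (Hist1h2bc), an H2B gene known to give polyadenylated transcripts as well as stem-loop ones, had the largest rise of all 42 genes. Its values were 8.46 and 8.33 on the day 0 arrays, 9.89 and 9.78 at day 3 and then 10.18 and 10.15 at day 4. The rise was 1.44 (SE 0.07, adjusted p = 2.60e-06) by day 3 and 1.77 (SE 0.07, adjusted p = 9.28e-07) by day 4, which is 3.40-fold. It was the only cluster gene whose rise reached 1 on the log2 scale. A further 0.33 was gained between day 3 and day 4 (adjusted p = 0.0115), a call that was lost without day 3 replicate 2 (adjusted p = 0.0656), day 4 replicate 1 (0.0570) or day 4 replicate 2 (0.0508).

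H2bu2 (Hist3h2ba), an H2B gene of the small Hist3 locus, went from 7.54 and 7.48 to 8.11 and 8.14 at day 3 and 8.11 and 8.18 at day 4. It rose by 0.61 by day 3 (SE 0.06, adjusted p = 7.26e-05) and by 0.63 by day 4 (SE 0.06, adjusted p = 5.23e-05), and these calls held in every alternative. H2bc21 (Hist2h2be), also an H2B gene with known polyadenylated transcripts, was dim at 5.74 and 5.77 and read 6.26 and 5.99 at day 3, a rise of 0.37 (adjusted p = 0.00915). At day 4 it stood at 6.00 and 5.97 and did not pass the test (adjusted p = 0.0578).

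The other rises at day 4 were small, from 0.21 to 0.40. H4c3 (Hist1h4c) had 9.777 and 10.0003 at day 0, 9.78 and 9.81 at day 3 and then 10.14 and 10.44 at day 4, which gave 0.40 (SE 0.11, adjusted p = 0.0193). H4c6 (Hist1h4f) rose by 0.24 (adjusted p = 0.0122) and H2aw (Hist3h2a), an H2A gene of the Hist3 locus, by 0.21 (adjusted p = 0.0106). These calls were lost without day 0 replicate 1 (adjusted p = 0.114, 0.0719 and 0.0507), and those of H4c3 and H4c6 also without day 4 replicate 2 (adjusted p = 0.101 and 0.0720). The day 4 rises of H4c3, H4c6, H2aw, H1f1 and H1f5 did not pass the test once the arrays were centred on their medians (adjusted p = 0.0675 to 0.315).

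H3c15 (Hist2h3c2), an H3 gene of the Hist2 locus, had the largest fall of the 42 genes. Its values were 8.78 and 8.73 on the day 0 arrays, 8.20 and 8.06 at day 3 and then 6.84 and 7.02 at day 4. Its log2 change was −0.62 (SE 0.08, adjusted p = 0.000405) by day 3 and −1.83 (SE 0.08, adjusted p = 1.67e-06) by day 4, a 3.55-fold lower intensity, with a difference of −1.20 between the later days (adjusted p = 0.000253). The 3 comparisons were called in every alternative. The arrays of the 3 days did not overlap, and the larger step lay between day 3 and day 4. Between any 2 of the days, 13252 to 15034 of the 19938 genes had no overlap.

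H4c9 (Hist1h4i) was at 8.40 and 8.53, then 8.23 and 8.11, then 7.73 and 7.79. It fell by 0.71 by day 4 (SE 0.07, adjusted p = 0.000113) and differed by −0.41 between day 3 and day 4 (adjusted p = 0.00658). Its day 3 fall of 0.29 (adjusted p = 0.0111) did not hold when day 0 replicate 2 (adjusted p = 0.0674) or day 3 replicate 2 (0.0710) was left out. H2bc8 (Hist1h2bg) went from 8.96 and 8.88 to 8.65 and 8.64 and then 8.66 and 8.42, a fall of 0.38 by day 4 (SE 0.08, adjusted p = 0.00609). Its day 3 fall of 0.28 (adjusted p = 0.0253) was lost with any 1 of the day 0 or day 3 arrays left out (adjusted p = 0.0536 to 0.116).

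The H1 family of the Hist1 cluster, which supplies the somatic linker histones, split by gene. H1f5 (Hist1h1b) read 12.10 on both day 0 arrays, 12.37 and 12.27 at day 3 and 12.35 and 12.45 at day 4, and rose by 0.30 by day 4 (SE 0.06, adjusted p = 0.00427). H1f1 (Hist1h1a) read 11.67 and 11.74, then 11.67 and 11.66, then 11.93 and 11.99, so that its rise of 0.26 at day 4 (SE 0.06, adjusted p = 0.00634) came after day 3. H1f2 (Hist1h1c) went the other way, from 9.86 and 9.77 to 9.59 and 9.50 and then 9.25 and 9.06, a fall of 0.66 by day 4 (SE 0.08, adjusted p = 0.000265). H1f3 (Hist1h1d) went from 6.61 and 6.71 to 6.48 and 6.38 and then 6.14 and 6.33, a fall of 0.42 (SE 0.08, adjusted p = 0.00284). H1f4, the remaining somatic linker gene, had no probe set of its own. The probe set it shares with the H2B gene H2bc6 went from 8.90 and 8.94 to 8.66 and 8.74 at day 4, a difference of −0.22 (adjusted p = 0.0149). Under median centring the falls of H1f2 and H1f3 were still called and the rises of H1f1 and H1f5 were not. The day 3 calls of H1f2 (−0.27, adjusted p = 0.0219) and H1f5 (0.22, adjusted p = 0.0180) were lost without day 0 replicate 1 (adjusted p = 0.109 and 0.0655), and also, for H1f2, without day 3 replicate 2 (0.113) and, for H1f5, without day 0 replicate 2 (0.0654) or day 3 replicate 1 (0.110). That of H1f3 (−0.23, adjusted p = 0.0441) was lost with any 1 of the day 0 or day 3 arrays left out (adjusted p = 0.0619 to 0.195).

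Promoters of the H1 genes are shown because these genes belong to the same family and locus and still changed in opposite directions. RefSeq promoter windows (build GRCm38.p6, 250 bases before to 50 bases after the annotated start) were matched for 35 of the 42 genes, 26 of the cluster and 9 of the replacement genes. In the sequences below, read 5′ to 3′ on the gene's own strand, capitals mark CCAAT (the motif bound by nuclear factor Y), TATAAA (a form of the TATA box) and AAACACA (the H1 box known from linker histone promoters), each searched on both strands and marked in its reverse complement too.
H1f1 promoter (chr13:23763418-23763717, plus strand): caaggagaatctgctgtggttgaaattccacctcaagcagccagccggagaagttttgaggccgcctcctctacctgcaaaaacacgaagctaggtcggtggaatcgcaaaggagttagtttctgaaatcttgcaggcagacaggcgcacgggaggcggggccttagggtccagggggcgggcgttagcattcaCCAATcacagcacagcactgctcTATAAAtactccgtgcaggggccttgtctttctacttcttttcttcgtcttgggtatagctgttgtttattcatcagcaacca
H1f2 promoter (chr13:23738557-23738856, plus strand): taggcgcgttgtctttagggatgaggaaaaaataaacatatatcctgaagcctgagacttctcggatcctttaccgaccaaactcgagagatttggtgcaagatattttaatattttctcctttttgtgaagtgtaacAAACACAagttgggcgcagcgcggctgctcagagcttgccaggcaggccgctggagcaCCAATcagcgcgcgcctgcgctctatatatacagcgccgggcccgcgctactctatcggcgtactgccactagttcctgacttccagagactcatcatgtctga
H1f3 promoter (chr13:23554782-23555081, plus strand): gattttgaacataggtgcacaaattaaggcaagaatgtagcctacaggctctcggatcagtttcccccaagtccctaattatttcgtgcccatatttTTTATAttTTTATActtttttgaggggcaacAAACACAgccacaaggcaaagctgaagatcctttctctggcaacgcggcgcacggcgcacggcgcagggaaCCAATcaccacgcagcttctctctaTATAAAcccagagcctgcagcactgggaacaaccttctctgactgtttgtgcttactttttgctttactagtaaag
H1f5 promoter (chr13:21780576-21780875, minus strand): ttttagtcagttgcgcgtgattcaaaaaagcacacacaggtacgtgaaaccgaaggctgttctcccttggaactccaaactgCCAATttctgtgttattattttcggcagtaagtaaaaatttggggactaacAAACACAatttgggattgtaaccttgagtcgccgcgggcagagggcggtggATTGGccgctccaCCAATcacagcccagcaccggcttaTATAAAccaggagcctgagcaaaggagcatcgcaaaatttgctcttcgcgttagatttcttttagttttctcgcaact
All 5 H1 cluster genes with their own probe set have CCAAT within a narrow distance of the start, its leftmost base 56 bases before it in H1f1, 54 in H1f2, 51 in H1f3, 53 in H1f5 and 65 in H1f6. AAACACA stands 112 to 122 bases before the start in H1f2, H1f3, H1f5 and H1f6 and is not in the H1f1 window in these letters. TATAAA lies 26 to 33 bases before the start in H1f1, H1f3 and H1f5. H1f3 also holds the complement of TATAAA 153 and 145 bases before the start, and H1f5 also holds CCAAT 168 bases and its complement 66 bases before it.

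Beside them are set, among the matched genes, the promoters of the largest rise and the largest fall of the cluster genes (H2bu2 and H3c15) and of the 2 largest rises of the replacement genes. H2bc4 had no matched window.
H2bu2 promoter (chr11:58948661-58948960, plus strand): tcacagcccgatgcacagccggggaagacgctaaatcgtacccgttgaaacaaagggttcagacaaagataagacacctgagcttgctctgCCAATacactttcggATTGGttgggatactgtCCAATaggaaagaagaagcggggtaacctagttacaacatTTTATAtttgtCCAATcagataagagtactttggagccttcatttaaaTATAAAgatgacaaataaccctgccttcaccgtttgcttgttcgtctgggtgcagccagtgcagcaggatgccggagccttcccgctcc
H3c15 promoter (chr3:96239078-96239377, minus strand): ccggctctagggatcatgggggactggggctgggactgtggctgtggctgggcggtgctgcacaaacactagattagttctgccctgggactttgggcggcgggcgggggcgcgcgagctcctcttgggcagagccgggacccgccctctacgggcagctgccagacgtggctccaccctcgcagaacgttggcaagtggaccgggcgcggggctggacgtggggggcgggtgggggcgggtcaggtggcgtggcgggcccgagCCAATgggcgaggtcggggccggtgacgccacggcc
Macroh2a2 promoter (chr10:61783815-61784114, minus strand): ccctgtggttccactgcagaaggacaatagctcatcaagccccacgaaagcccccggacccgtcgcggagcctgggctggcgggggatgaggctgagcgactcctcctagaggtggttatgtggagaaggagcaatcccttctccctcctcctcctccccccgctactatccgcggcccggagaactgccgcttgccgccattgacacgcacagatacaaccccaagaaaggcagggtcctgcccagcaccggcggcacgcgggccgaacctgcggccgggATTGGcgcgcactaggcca
H2az2 promoter (chr11:6444394-6444693, minus strand): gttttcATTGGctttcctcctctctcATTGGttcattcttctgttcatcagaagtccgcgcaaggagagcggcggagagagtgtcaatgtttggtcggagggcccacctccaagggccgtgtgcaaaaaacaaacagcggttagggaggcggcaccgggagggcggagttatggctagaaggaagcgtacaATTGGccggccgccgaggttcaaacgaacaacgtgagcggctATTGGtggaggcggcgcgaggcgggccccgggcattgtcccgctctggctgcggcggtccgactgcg
H2bu2 holds CCAAT or its complement 4 times, TATAAA 39 bases before the start and the complement of TATAAA 87 bases before it. H3c15 differs from the other cluster promoters printed, with a GC content of 72.7% and a lone CCAAT after the annotated start. H2az2 (GC content 60.7%) holds the complement of CCAAT 4 times, Macroh2a2 (65.7%) holds it after the start, and neither holds TATAAA. Over the matched genes, CCAAT was in 22 of 26 cluster promoters (84.6%) and 6 of 9 replacement promoters (66.7%), against 37.4% of all 32851 promoter windows. TATAAA was in 16 of 26 (61.5%) and in 0 of 9, against 13.6% of all. The H1 box was in 8 of 26 (30.8%) and 1 of 9 (11.1%), against 7.18% of all. The octamer ATTTGCAT, bound by POU factors, was searched in the same way. It was in 5 of 8 H2B, 4 of 5 H2A and 0 of the other cluster promoters, against 1.74% of all. Hits in the H2ac1 and H2bc1 windows lay at mirrored places on opposite strands, as did those in H2ac8 and H2bc8. The same stretch may therefore be counted for both genes of such a pair. All matched promoters of the H1, H2A, H2B and H3 cluster families held CCAAT, and 2 of 6 of H4 did. The motifs are descriptions of these windows, the H1 box and the octamer were chosen after the data were seen, and no match says only that the letters are not in the window.

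3 cluster genes are known for expression in testis. H1f6 (Hist1h1t) read 5.89 and 6.14 on the day 0 arrays, 5.42 and 5.40 at day 3 and later 5.64 and 5.79 at day 4, and fell by 0.60 by day 3 (SE 0.09, adjusted p = 0.00108). Its day 4 fall of 0.30 (adjusted p = 0.0291) did not hold when day 0 replicate 2 (adjusted p = 0.144) or day 4 replicate 1 (0.155) was left out. With a mean below 6, it was among the probe sets too dim for its level to be relied on. H2ac1 (Hist1h2aa) went from 9.19 and 9.28 to 8.86 and 8.87 and then 8.96 and 9.01, a fall of 0.25 by day 4 (SE 0.06, adjusted p = 0.00714). H2bc1 (Hist1h2ba) read 7.92 and 7.77 at day 0 and 7.66 and 7.76 at day 4, and its difference of −0.14 did not pass the test (adjusted p = 0.156).

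5 cluster genes were listed for known polyadenylated transcripts. At day 4, 2 of them were higher (H2bc4 and H2aw), 1 was lower (H1f2) and 2 did not pass the test. H4f16 (Hist4h4), 1 of the latter, read 11.41 and 11.44 at day 0 and 11.51 and 11.71 at day 4 (0.19, adjusted p = 0.0701). The list therefore holds the largest rise among the cluster genes and also the third largest fall. Among all genes, 25.9% were higher and 25.6% lower at day 4. The call of H2aw was lost once the arrays were centred on their medians. That left 1 of the 5 higher and 1 lower, against 19.0% and 42.7% of all genes.

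**Figure D2:**
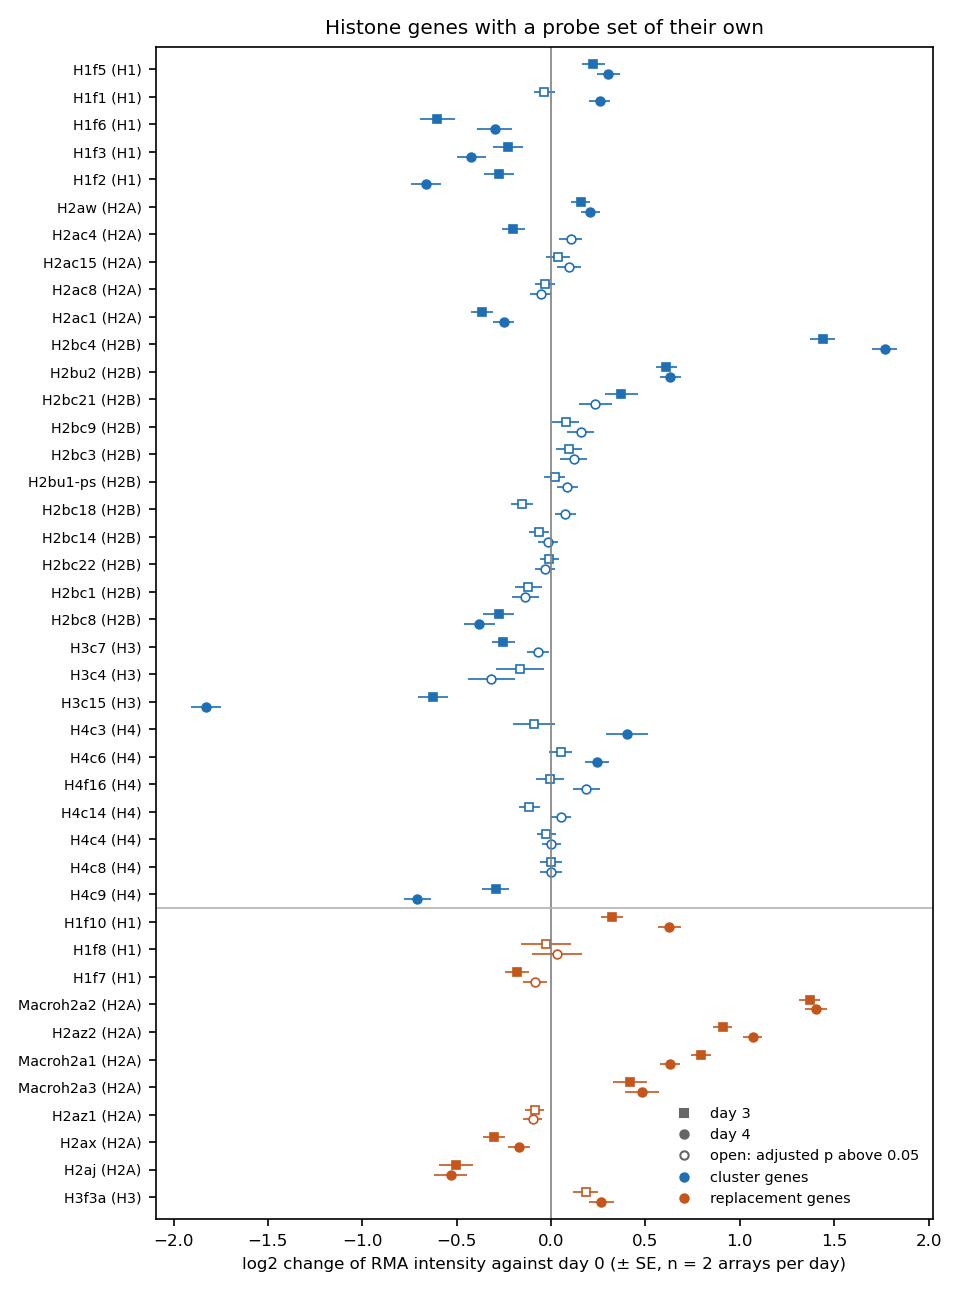
Log2 change of RMA intensity against day 0 for the 42 histone genes, at day 3 (squares) and day 4 (circles), with the SE of the fit as bars. Filled symbols passed the test. Cluster genes (blue, above the line) lie on both sides of 0 with H2bc4 at 1.77 and H3c15 at −1.83 as the extremes, and 6 of the 11 replacement genes (orange) lie to the right with filled circles.

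Of the 42 genes, 7 were dim. Among the cluster genes that did not pass at day 4, changes lay between −0.32 and 0.24, and the 95% intervals of all 17 lay within −0.61 and 0.44. H4c4 (Hist1h4d) was the brightest H4 gene, at 13.74 to 13.78 on the 6 arrays, and its change of 0.00 had an interval of −0.12 to 0.12. The H4 probe sets shared by 11 genes read at the same height, 13.72 to 13.94. Whether the H4c4 probe set reads that gene alone, and follows the amount of RNA at this height, was not tested. H4c8 (Hist1h4h), the dimmest H4 gene, read 7.55 to 7.65 with an interval of −0.14 to 0.13. Among the H2B genes the brightest was H2bc14 (Hist1h2bm), at 12.59 to 12.68, and the dimmest H2bc22 (Hist1h2bp), at 5.91 to 5.98. In H2A they were H2aw, at 12.88 to 13.10, and H2ac8 (Hist1h2ae), at 5.42 to 5.51. H3c7 (Hist1h3f), the dimmest H3 gene, read 5.29 and 5.20 at day 0 and 4.97 and 5.01 at day 3, and fell by 0.25 (adjusted p = 0.00914), a call lost without day 0 replicate 1 or day 3 replicate 1 (adjusted p = 0.0545 and 0.0548). Brightness differs between probe sets for reasons other than the amount of RNA, so these values give no order of the genes.

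From day 3 to day 4 the called cluster genes other than those above were H2ac4 (Hist1h2ab) and H2bc18 (Hist2h2bb). H2ac4 read 10.42 and 10.54, then 10.31 and 10.26, then 10.58 and 10.59, a rise of 0.30 between the later days (adjusted p = 0.0108) after a difference of −0.20 by day 3 (adjusted p = 0.0276) that was lost without day 0 replicate 2 (0.144) or either day 3 array (0.0604 and 0.129). H2bc18 read 9.77 and 9.70 at day 3 and 9.96 and 9.97 at day 4 (0.23, adjusted p = 0.0233). H4c3 rose by 0.49 (adjusted p = 0.0176), H1f6 by 0.30 (adjusted p = 0.0469) and H1f1 by 0.29 (adjusted p = 0.00929), and H1f2 fell by 0.39 (adjusted p = 0.0114). Of the 10 calls between the later days over both classes, those of H3c15 and H4c9 were kept when each array was left out in turn, and the other 8 were lost at least once (adjusted p = 0.0508 to 0.216).

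Some neighbours in the Hist1 locus were called in opposite directions. RefSeq orders 56 of the genes along this locus on chromosome 13, of which 23 had a probe set of their own and 32 only shared ones. H2bc4, H1f6, H4c3 and H1f2 follow each other at places 42 to 45, and at day 4 their called changes were 1.77, −0.30, 0.40 and −0.66. H4c6 and H1f3, at places 30 and 31, also went opposite ways (0.24 and −0.42). H1f6 was dim, and the day 4 calls of H1f6, H4c3 and H4c6 were each lost in some of the alternatives, as described above. Other measured neighbours had changes of the same sign, such as H2bc1 and H2ac1 at places 54 and 55 (−0.14, which did not pass the test, and −0.25), and the order was not tested. In the Hist3 locus on chromosome 11, H2bu2 and H2aw rose, while the pseudogene H2bu1-ps (Hist3h2bb) between them differed by 0.09 (adjusted p = 0.247). The call of H2aw was also lost in some of the alternatives, as described above.

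**Figure D3:**
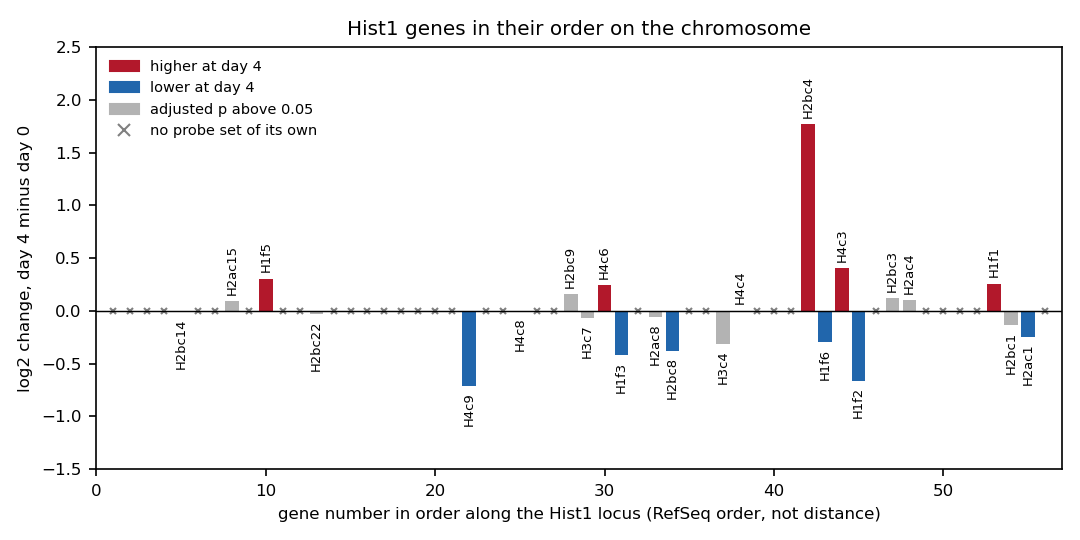
Log2 change between day 4 and day 0 of the Hist1 genes with a probe set of their own, in their RefSeq order along the locus (places 1 to 56, not drawn to distance). Red bars were called higher, blue bars lower, grey bars did not pass the test, and crosses mark genes without a probe set of their own. Red and blue bars alternate at places 42 to 45, where the calls of H1f6 and H4c3 were lost in some of the alternatives.

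Most of the cluster genes could be read only together with their family. Of the 33 probe sets that a histone gene shares with other genes, 24 carry 11 or more histone genes, nearly all of 1 family each, whose coding sequences are known to be nearly the same. The H3 sets carry 12 genes each, the H4 sets 11 and the H2B sets 14 or 15, and 2 sets carry 19 or 20 symbols, of cluster H2A genes with H2ax, H3c4 and, in 1 of them, H2aj. They read 13.09 to 14.03, above 98.9% of all probe sets, where the highest value on any array was 14.38. At day 4 they differed from day 0 by −0.04 to 0.01 for H3, by 0.02 to 0.09 for H2B, by 0.07 to 0.09 for H4 and by 0.02 to 0.07 for the mixed H2A sets. Among the 24 sets, 22 have different values, since 1 pair of H2B sets and 1 pair of H4 sets read the same on all arrays. None of the 24 passed the test in any comparison (limma, adjusted over 23410 annotated probe sets), and at an unadjusted p under 0.05 there were 2 at day 3 against day 0 and 0 in the other comparisons. How far signals at this height can still follow the amount of RNA was not tested.

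H3c15 fell by 1.83 on its own probe set and is 1 of 12 genes in each of the 10 H3 sets, which differed by −0.04 to 0.01. H2bc4 rose by 1.77 on its own probe set and is part of each of the 7 H2B sets, which differed by 0.02 to 0.09. Of the 31 cluster genes, the 12 in no shared probe set had 3 higher and 4 lower at day 4, and the 19 that are also in shared sets had 4 higher and 3 lower, where 25.9% of all genes were higher and 25.6% lower. H4c17 and H4c11 share a probe set with each other alone, which fell by 0.23 by day 4 (adjusted p = 0.0343).

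**Figure D4:**
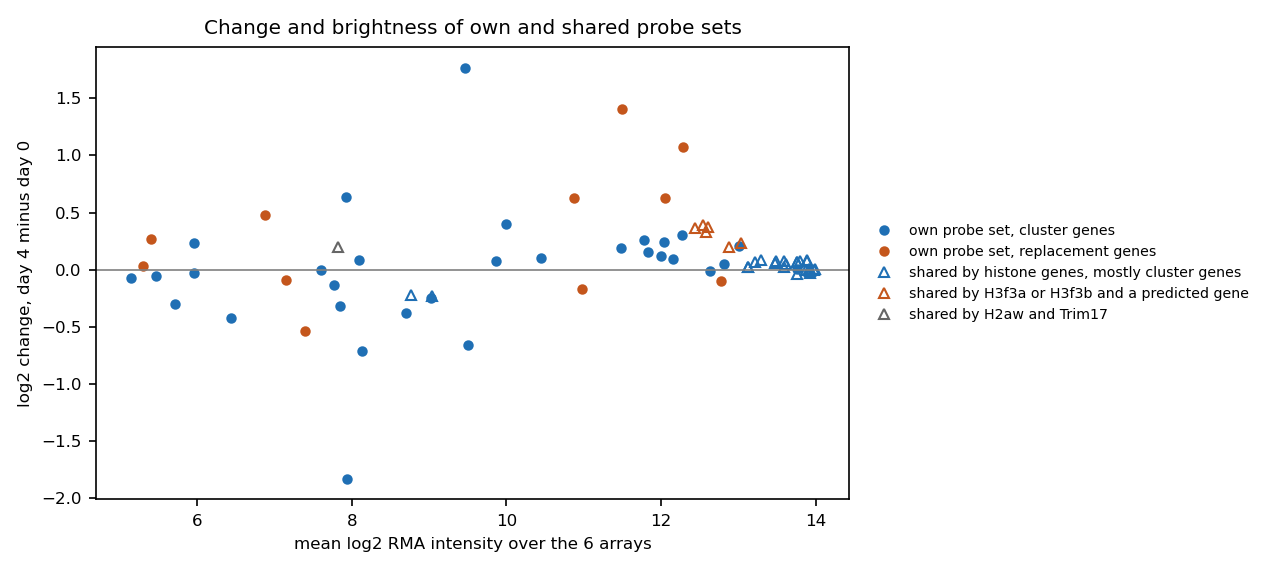
Log2 change between day 4 and day 0 against the mean RMA intensity over the 6 arrays, for the own probe sets of 42 histone genes (circles) and the 33 shared probe sets (triangles). The sets shared by 11 or more histone genes crowd at the right, above 13.0, within −0.04 to 0.09 of no change, and the sets of H3f3a and H3f3b lie just left of them at 0.20 to 0.39.

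Genes that make histone transcripts were mostly lower at day 4. Of the 15 measured members of a list for histone mRNA synthesis and processing, 11 fell, 1 rose and 3 did not pass the test, with a median change of −0.42. Among all genes, 25.6% fell and 25.9% rose. Npat, the cyclin E target that activates the histone clusters, went from 10.52 and 10.47 to 10.39 and 10.35 at day 3 and 10.06 and 10.09 at day 4, a fall of 0.42 (SE 0.05, adjusted p = 0.000352). Slbp, whose product binds the stem-loop, went from 10.55 and 10.54 to 10.21 and 10.19 and then 10.20 and 10.12, a fall of 0.38 (SE 0.05, adjusted p = 0.000649). The largest falls were those of Zfp473, a zinc finger protein of the U7 processing complex (−0.70, adjusted p = 9.44e-05), and Srrt, the ARS2 protein of the cap complex (−0.68, adjusted p = 3.43e-05). Lsm11, a component of the U7 particle, rose by 0.27 (adjusted p = 0.0108), and Coil, which marks Cajal bodies, differed by −0.02 (adjusted p = 0.891). Under median centring 11 fell and 0 rose, where 42.7% of all genes fell and 19.0% rose. At day 3, 9 fell and 0 rose, also 0 at an unadjusted p under 0.05, where 28.1% of all genes fell and 23.8% rose.

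Of 8 genes for the breakdown of histone mRNA, 2 rose and 5 fell by day 4, and 4 rose and 4 fell by day 3. The 25.0% that rose by day 4 is near the 25.9% of all genes, and the 62.5% that fell stands against 25.6%. By day 3, 23.8% of all genes rose and 28.1% fell. Dis3l2, which degrades uridylated RNA, rose by 0.85 by day 3 and 0.63 by day 4 (adjusted p = 7.21e-05), and Tut4, which adds uridines, rose by 0.78 and 0.48 (adjusted p = 0.00031). Upf1, a helicase, fell by 0.64 by day 4 (adjusted p = 6.54e-05) and Lsm1 by 0.62 (adjusted p = 5.38e-05). Tut7 was higher at day 3 (0.24, adjusted p = 0.0298) and at day 4 differed by −0.07 (adjusted p = 0.468).

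Histone chaperones that serve replication were lower in 9 of 15 cases at day 4 and higher in 1, with a median of −0.42. Among all genes, 25.6% were lower and 25.9% higher. The largest falls were in Tonsl (−0.85, SE 0.08, adjusted p = 7.82e-05) and Mms22l (−0.79, SE 0.06, adjusted p = 1.86e-05), which form a complex at replication forks. Asf1a rose by 0.20 (adjusted p = 0.0175) while Asf1b, the paralogue tied to dividing cells, fell by 0.51 (adjusted p = 0.000201). Rbbp4 differed by −0.01 (adjusted p = 0.875). After median centring 13 fell and Asf1a was not called higher, where 42.7% of all genes fell. Of 14 genes for the deposition of variants, 2 rose, 6 fell and 6 did not pass at day 4, and with the arrays centred on their medians 2 rose and 11 fell. The 14.3% higher and 42.9% lower before centring stand against 25.9% and 25.6% of all genes, and the centred counts against 19.0% and 42.7%. Vps72, which binds H2A.Z in its exchange complexes, went from 10.52 and 10.49 to 11.06 and 11.04 and then 11.16 and 11.17, a rise of 0.66 (SE 0.05, adjusted p = 2.68e-05), and Ubn1, of the HIRA complex for H3.3, rose by 0.45 (adjusted p = 0.00127). Ep400, an H2A.Z exchange ATPase, fell by 0.69 (adjusted p = 2.65e-05), Mis18a, of centromeric deposition, by 0.56 (adjusted p = 0.000125) and Hira by 0.43 (adjusted p = 0.000449). Dek differed by −0.03 (adjusted p = 0.646). No single direction held for the deposition genes at day 3, when 5 rose and 5 fell, against 23.8% and 28.1% of all genes.

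Genes of S phase were mostly lower as well. Of 22 measured, 18 fell, 0 rose and 4 did not pass, where 25.6% of all genes fell and 25.9% rose. At an unadjusted p under 0.05, 0 rose as well, and the median was −0.35. Their summed intensity was 58557 to 58805 at day 0, 47790 to 48647 at day 3 and 45882 to 46152 at day 4. Cdc6, which licenses replication origins, fell by 1.06 (SE 0.06, adjusted p = 7.74e-06) and Rrm2, a subunit of ribonucleotide reductase, by 0.76 (adjusted p = 1.68e-05), while E2f1 differed by −0.09 (adjusted p = 0.249). Under median centring 22 of 22 fell, where 42.7% of all genes did. Over the same days the family-wide histone probe sets described above did not pass the test under the deposited scaling. They were not refitted with median centring, which shifted every day 4 change by −0.15. Whether signals at their height follow the amount of RNA was not tested, nor was the part of S phase in the histone changes. Among 5 measured histone-like genes, of which H1f7 and H1f8 are counted above, none passed at day 4 (1 at an unadjusted p under 0.05). Cenpa, the centromeric H3, was lower at day 3 (−0.25, adjusted p = 0.00791) and differed by −0.13 at day 4 (adjusted p = 0.0964), and the spermatid gene Hils1 differed by 0.02 (adjusted p = 0.86).

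**Figure D5:**
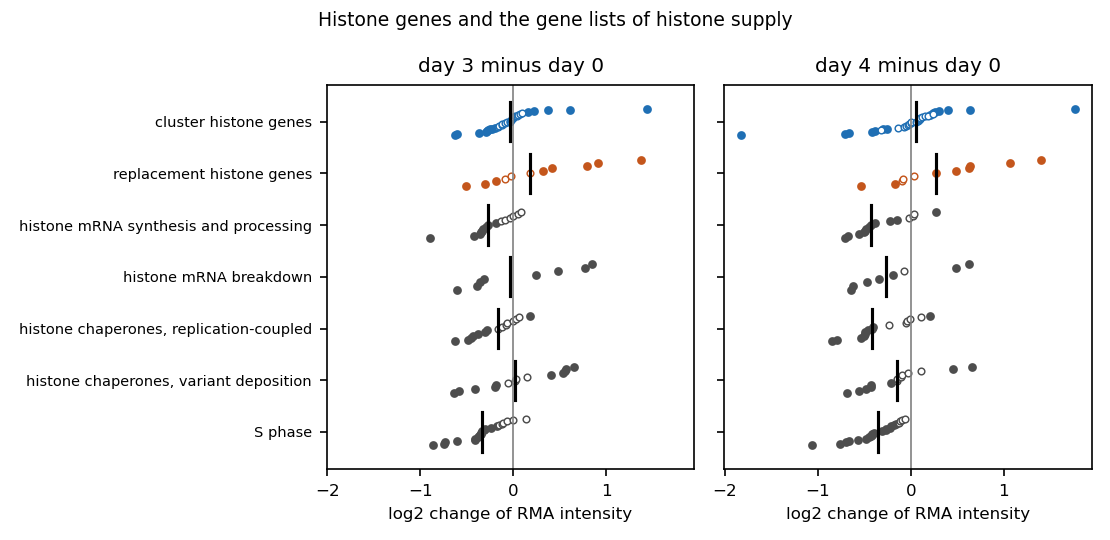
Log2 change of RMA intensity against day 0, at day 3 (left) and day 4 (right), for cluster and replacement histone genes and 5 gene lists, with 1 point per gene, filled where the test was passed, and a black line at each group's median. At day 4 the medians of the S phase list (−0.35), the processing list (−0.42) and the replication-coupled chaperones (−0.42) lie left of 0, that of the cluster genes at 0.05 and that of the replacement genes at 0.27.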

How the data were processed

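RNA of 6 samples was hybridised to 6 arrays, 2 per day. Titles in the labels gave each array's day and replicate number. The authors' deposited log2 values came from RMA in Partek (background correction, quantile normalization, summary per probe set), so levels are relative to all other transcripts and changes of dim genes are compressed. Arrays hold no read depth, and their small number sets the precision.

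The table held 35557 probe sets. Of the 23410 in the platform annotation, 21789 had 1 gene symbol and 1621 several, and 12147 were unnamed here. Current and older symbols were joined through the RefSeq table of GRCm38.p6 (21698 matched), which also gave the promoter windows.

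Changes were fitted with limma 3.58.1 in R 4.3.3 (functions lmFit and eBayes), as a mean per day over all 6 arrays, with 3 residual and 4.07 prior degrees of freedom. Tests were two-sided, with Benjamini-Hochberg adjustment over 19938 genes, or over all annotated probe sets for the shared ones and for the dimmer H2az1 probe set, an addition made after the data were seen. The fit was tested on simulated data. Alternatives were median centring, cyclic loess, an intensity trend with robust moderation, dim genes (mean below 6) left out, a replicate block, only the compared days, the mean of a gene's probe sets, shared probe sets added and each array left out in turn.

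The members and lists were chosen with earlier results of these data known. Named were all replacement genes, the cluster genes with the largest called changes whose arrays did not overlap (up to 10 each way against day 0, 5 between the later days), the brightest and dimmest of each family, the testis and polyadenylated lists and, for the other lists, the 2 largest called changes each way and 1 not called. H2bc18, H2bu1-ps, Npat, Slbp, Asf1b, Hira, Hils1 and the genes in shared probe sets were named after their values were seen. Protein sequences were not used here.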

Additional observations from a re-analysis of the deposited data

How the results depend on the processing

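Of 126 changes of histone genes (42 genes, 3 comparisons), 54 were called, and 29 of these were kept in every alternative that gave them a value. With dim genes left out, 48 of the 54 had a value, all still called. None of the 54 turned its direction. At day 4, 31.0% of the 42 genes were called higher and 21.4% lower, against 25.9% and 25.6% of all genes. At day 3 the shares were 23.8% and 28.6%, against 23.8% and 28.1%. Between the later days they were 16.7% and 7.1%, against 15.8% and 12.2%. Centring each array on its median ended 10 calls. It gave 2 cluster genes higher, 14 lower and 4 replacement genes lower at day 4, against 19.0% higher and 42.7% lower of all genes. It gave 3 cluster genes higher at day 3, against 19.5% of all genes. Between the later days it gave 1 replacement gene lower, against 15.5% of all genes. It also turned H4c4, which was not called, to −0.14 at day 4 (adjusted p = 0.0403). Cyclic loess ended 5 calls. Of replacement genes it gave 1 lower at day 4 and 1 lower between the later days, against 25.6% and 14.1% of all genes. With an intensity trend and robust moderation, 3 replacement genes were higher and 1 lower at day 4 than at day 3, and with dim genes left out, 2 and 1. With the replicate number as a replicate block, 3 calls were lost and 1 replacement gene was lower at day 4. The labels do not tie same-numbered arrays, whose deviations from the day means correlated at 0.03 to 0.08. Mean probe sets, the compared days alone and the shared probe sets moved no other count past 1.5 times. The shares of all genes were counted only for the deposited scaling, median centring and cyclic loess.

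Leaving out each array in turn gave 4 to 8 cluster genes higher and 6 to 8 lower at day 4, 3 to 4 and 4 to 10 at day 3, and 0 to 6 and 2 to 4 between the later days. For replacement genes it gave 5 to 6 higher and 1 to 2 lower at day 4, 5 to 6 and 2 to 3 at day 3, and 0 to 1 and 0 to 0 between the later days. With a day of 1 array, that array was assumed to vary like the others. The cause of these differences was not tested.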
